A study of Mus musculus with 16 samples.

Results

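The 35 genes described here encode the machinery that copies DNA and divides the cell: cyclins and their kinases, the MCM helicase, enzymes of the replication fork and of nucleotide supply, and proteins of chromosomes, kinetochores and the spindle. They were the rows of the deposited count table whose gene symbol is on a list of such genes, 35 of 35502 genes in all. RNA came from the livers of 16 mice carrying a floxed Esr1, the gene of oestrogen receptor alpha (ERα), and each mouse gave 1 library. Mice with Cre are liver-specific ERα knockouts (LERKO) and mice without Cre are the floxed controls. Each genotype had mice labelled mature and mice labelled immature, so there were 4 mature controls, 4 mature LERKO, 4 immature controls and 4 immature LERKO mice, with no other agent named. The sources used here do not give the promoter that drives Cre, the route by which Cre was delivered, or the sex and age of the mice. They also do not say whether mature and immature refer to the time of knockout or of tissue collection. Libraries are numbered 1 to 4 within a group only to name them.

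Most hepatocytes of an undisturbed liver rest outside the cycle. A cell that enters it builds up D-type and E-type cyclins, which with their kinases release E2F factors to switch on genes for DNA synthesis. The genes of mitosis follow later under FOXM1 and the MuvB complexes, and the inhibitor p21 can halt the cycle. Transcripts of these genes in whole liver come from any dividing cell, hepatocyte or not. In such bulk RNA, fewer cells of a type and less RNA per cell cannot be told apart.

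Each library held 18124000 to 23214000 counts in total, and 13379 genes were abundant enough to test. Esr1 was measured first as a check of the genotype labels. Its level, in CPM (counts brought to equal library totals with TMM factors), was 75.0, 66.7, 110 and 76.9 in the mature controls and 15.8, 19.1, 16.4 and 13.9 in mature LERKO. It was 65.8, 84.5, 89.0 and 55.3 in the immature controls and 10.7, 12.6, 16 and 12.7 in immature LERKO, so every LERKO library lay below every control. Esr1 fell by 2.33 (log2) in mature LERKO (edgeR adjusted p = 1.6e-05) and by 2.50 in immature LERKO (edgeR adjusted p = 6.5e-06). Hepatocyte markers such as Alb and Cyp2e1 dominated every library, at a summed 92300 to 163000 CPM. Mature LERKO library 4 had the lowest of these sums and stood apart in other markers too, with 101 CPM of neutrophil markers such as S100a9 and S100a8 against at most 4.11 elsewhere. Mature control libraries 1 and 2 and immature LERKO library 4 held the most skeletal muscle transcripts, which is taken up again beside the results they touch.

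No cell cycle gene passed the threshold of an adjusted p of 0.05 in any of the 5 comparisons. Of the 35 genes, 31 had enough counts to be tested. Ccnb1, Plk1, Aurkb and Bub1 did not. Among all 13379 tested genes, 0.00747% passed in the comparison of LERKO with control in mature mice and 0.00747% in that in immature mice, which in each case was Esr1 alone. None passed (0%) between mature and immature controls, 0% between mature and immature LERKO, and 0% in the difference of the LERKO effects between the stages. At an unadjusted p under 0.05, 976 genes differed in mature mice, 369 in immature mice, 1317 between control stages, 660 between LERKO stages and 850 in the difference of effects.

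The cell cycle genes nevertheless leaned to one side in each comparison. In mature mice 27 of the 31 tested genes had a lower fitted level in LERKO than in control, with a median log2 difference of -0.49. The median over all tested genes was -0.01, and 48.2% of them were higher. In immature mice 29 of the 31 were higher in LERKO, with a median of 0.70 against 0.01 over all genes. By group means of all 35 genes, mature LERKO lay below mature control for 30, immature LERKO above immature control for 33, and both held for 28. The lowest of the 4 group means was that of the immature controls for 25 genes and that of mature LERKO for 8. The highest was that of immature LERKO for 18 and that of the mature controls for 15. These genes share their libraries and are not independent replicates, so the counts of signs carry no test.

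**Figure D1:**
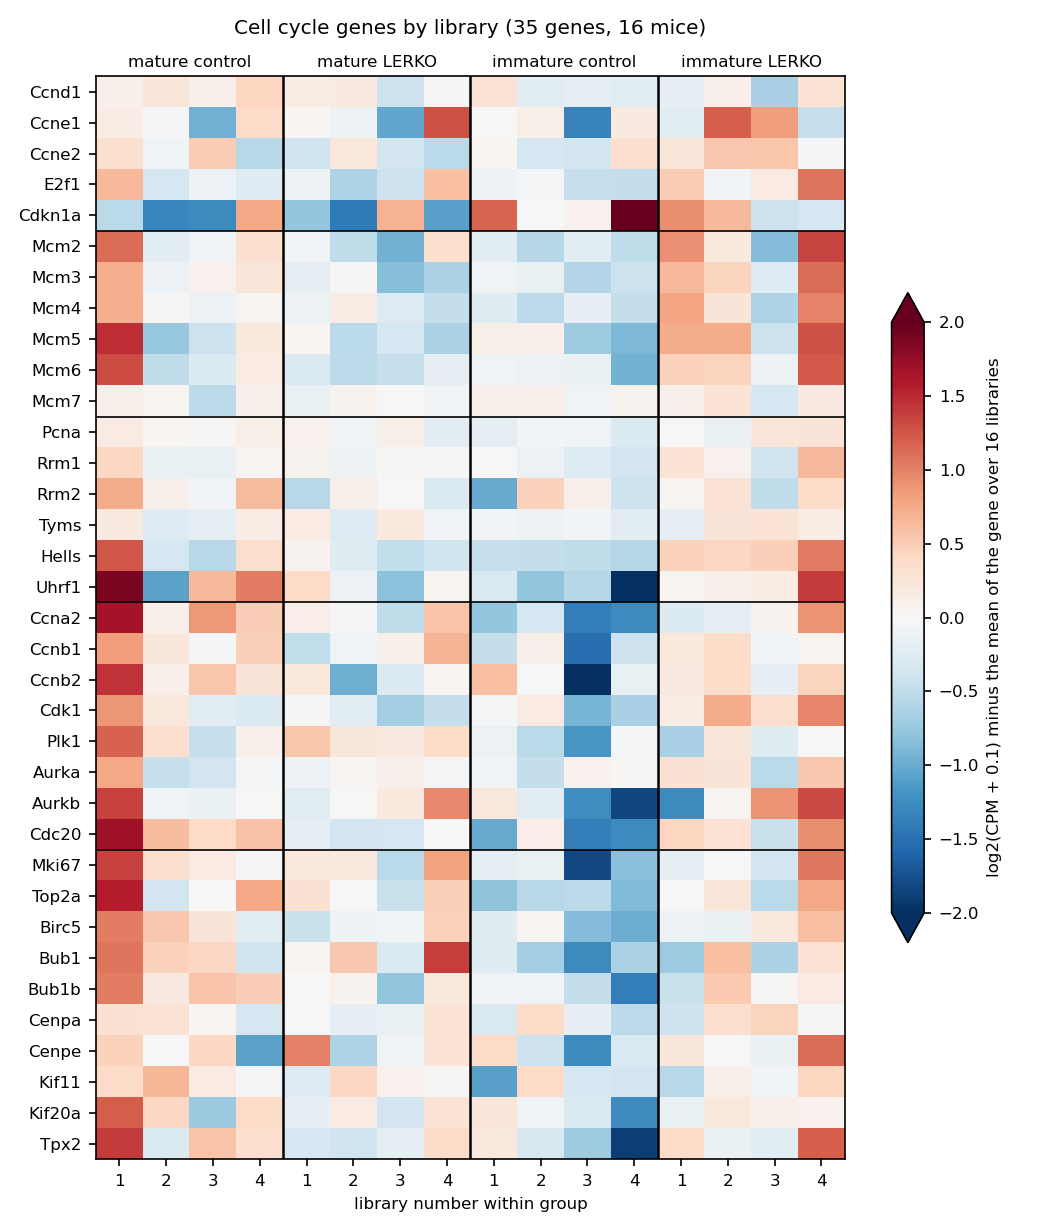
Level of each of the 35 genes (rows, ordered by role) in each of the 16 libraries (columns, libraries 1 to 4 of each group), as log2(CPM + 0.1) minus the mean of that gene over the libraries. Mature control library 1 is the highest of its group for 30 genes and immature LERKO library 4 for 24, while immature control libraries 3 and 4 are the lowest of all 16 for 10 and 12 genes.

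Read as single genes, few differences stood clear of the spread between mice. At an unadjusted p under 0.05, 4 of the 31 genes were lower in mature LERKO, where 3.85% of all tested genes were, and 14 were higher in immature LERKO, where 1.86% were. Without overlap between the groups, 1 gene (Cdc20) was lower in mature LERKO, beside 2.29% of all genes. The mature LERKO libraries held 6 to 7 counts of Cdc20, below the filter's minimum count of 10. In immature LERKO 3 genes (Hells, Uhrf1 and Ccna2) were higher without overlap, beside 0.957% of all genes. The difference of the LERKO effects, which is the test of whether the knockout contrast differs between the stages, had a negative sign for 30 of the 31 genes and an unadjusted p under 0.05 for 15, where 4.34% of all genes were lower at that threshold. Its median over the 31 was -1.18, against -0.01 over all genes.

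Known E2F-driven genes carry E2F sites in their promoters, and genes of mitosis often carry CHR elements with CCAAT boxes, so the promoters of genes with small p-values in the difference of effects are shown with these letters marked. They are RefSeq windows of build GRCm38.p6, 250 bases before to 50 after the start, in gene direction. Capitals mark matches on either strand to TTTGAA or to TTTAAA (CHR), to CCAAT (the box of that name), and to TTTCCCGC, to TTTGGCGC or to TTCCCGCC (E2F). Neighbouring E2F matches overlap in Mcm3, and CCAAT matches on opposite strands do in Uhrf1. Cdc20, at chr4:118437294-118437593 on the minus strand, held 1 CHR match and 2 CCAAT boxes.
Cdc20: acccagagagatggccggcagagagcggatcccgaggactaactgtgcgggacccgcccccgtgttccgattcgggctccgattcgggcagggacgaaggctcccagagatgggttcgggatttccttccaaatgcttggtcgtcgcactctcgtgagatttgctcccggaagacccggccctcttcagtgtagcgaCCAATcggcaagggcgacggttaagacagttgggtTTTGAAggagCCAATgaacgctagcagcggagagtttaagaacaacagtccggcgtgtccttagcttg
Mcm3, at chr1:20820263-20820562 on the minus strand, held 3 CCAAT boxes and 3 E2F matches.
Mcm3: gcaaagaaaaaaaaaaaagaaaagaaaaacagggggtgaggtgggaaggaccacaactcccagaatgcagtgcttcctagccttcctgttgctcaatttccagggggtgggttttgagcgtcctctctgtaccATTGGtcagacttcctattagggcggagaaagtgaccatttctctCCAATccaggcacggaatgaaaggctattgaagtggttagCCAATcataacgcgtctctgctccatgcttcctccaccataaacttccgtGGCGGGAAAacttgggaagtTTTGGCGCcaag
Mcm6, at chr1:128359656-128359955 on the minus strand, held 2 CCAAT boxes and 2 E2F matches.
Mcm6: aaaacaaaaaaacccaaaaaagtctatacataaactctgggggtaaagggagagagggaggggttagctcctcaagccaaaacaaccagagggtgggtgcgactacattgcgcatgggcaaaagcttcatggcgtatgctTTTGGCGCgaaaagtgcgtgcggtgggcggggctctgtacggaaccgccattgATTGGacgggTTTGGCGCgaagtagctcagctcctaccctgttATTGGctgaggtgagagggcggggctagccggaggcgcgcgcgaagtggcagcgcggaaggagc
Hells, at chr19:38930740-38931039 on the plus strand, held 1 E2F match.
Hells: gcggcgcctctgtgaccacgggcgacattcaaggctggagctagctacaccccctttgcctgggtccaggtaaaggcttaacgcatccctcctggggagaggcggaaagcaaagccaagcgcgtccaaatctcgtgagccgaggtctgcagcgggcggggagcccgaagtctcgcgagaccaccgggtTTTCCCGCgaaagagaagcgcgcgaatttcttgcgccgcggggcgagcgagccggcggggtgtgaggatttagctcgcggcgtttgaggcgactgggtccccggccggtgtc
The first of the listed Uhrf1 windows, at chr17:56303087-56303386 on the plus strand, held 3 CCAAT boxes and 1 E2F match, while the other window, not shown, held 1 CHR match, 2 CCAAT boxes and 0 E2F matches.
Uhrf1: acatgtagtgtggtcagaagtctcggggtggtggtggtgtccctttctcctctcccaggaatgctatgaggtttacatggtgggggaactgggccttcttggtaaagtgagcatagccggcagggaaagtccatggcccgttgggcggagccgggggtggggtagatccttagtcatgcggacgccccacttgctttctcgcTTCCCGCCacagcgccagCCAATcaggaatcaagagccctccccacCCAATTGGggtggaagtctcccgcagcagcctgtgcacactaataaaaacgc
Cdkn1a, the inhibitor, is also shown, and its first listed window at chr17:29090729-29091028 on the plus strand held 0 matches, as did its other window. The windows of E2f1 and Tyms, not shown, held 0 matches too, so this is not particular to the inhibitor.
Cdkn1a: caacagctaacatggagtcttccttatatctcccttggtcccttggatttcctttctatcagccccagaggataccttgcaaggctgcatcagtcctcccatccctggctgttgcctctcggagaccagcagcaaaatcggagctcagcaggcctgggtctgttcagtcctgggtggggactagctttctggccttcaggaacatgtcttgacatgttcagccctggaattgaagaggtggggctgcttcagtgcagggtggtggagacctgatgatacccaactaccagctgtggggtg

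Of the 35 genes, 28 had a promoter entry, with 31 windows in all, and Ccna2, Tpx2, Aurkb, Kif20a, Ccnd1, Mcm4 and Ccne2 had none. An E2F match stood in 7 of the 28 genes and in 22.6% of their windows, namely in Hells, Mcm3, Mcm5, Mcm6, Mcm7, Rrm1 and Uhrf1, all genes of DNA replication or chromatin copying. Other replication genes, Mcm2, Pcna, Rrm2 and Tyms, held none, and neither did E2f1. The same letters stood in 3.21% of all 32851 promoter windows of this length. A CHR match stood in 58.1% of the windows of these genes and in 27.6% of all windows, and a CCAAT box in 77.4% against 37.4%. These are matches of letters only, and no binding was measured.

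The genes that govern entry into the cycle leaned least in mature mice and in the difference of the effects. Per kilobase of exon, Ccnd1, the D-type cyclin that responds to growth signals, had the highest level of the 35 genes, at 27.9 CPM per kb over the group means, followed by Pcna at 8.29 and Cdkn1a at 2.83. Ccnd1 was at 138, 152, 139 and 173 CPM in mature controls and at 143, 146, 95.9 and 131 in mature LERKO. It was at 157, 110, 114 and 110 CPM in immature controls and at 115, 138, 82.2 and 156 in immature LERKO. The groups overlapped in both genotype contrasts. The log2 difference was -0.22 (SE 0.18, edgeR adjusted p = 0.813) in mature and -0.00 (SE 0.18, edgeR adjusted p = 1.00) in immature mice, with a 95% interval of -0.39 to 0.39 in the latter. Exons of Ccnd1 overlap an antisense gene, and no source used here gives the strand setting of the counting.

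E2f1, a factor that switches on genes of DNA synthesis, averaged 2.40 ± 0.882 CPM in mature controls and 2.25 ± 0.955 in mature LERKO, and 1.94 ± 0.333 in immature controls and 3.30 ± 1.22 in immature LERKO (SD, n = 4 each). Its difference in immature mice had an unadjusted p = 0.027 (log2 0.77, edgeR adjusted p = 1.00), and the estimate was 0.50 without immature LERKO library 4. Cyclin E, the partner of CDK2 at the start of S phase, is encoded by Ccne1 and Ccne2. Ccne1 was the gene with the largest positive estimate in mature LERKO, at a log2 difference of 0.32 (SE 0.52, edgeR adjusted p = 0.928). It was at 1.17, 1.02, 0.491 and 1.39 CPM in mature controls and at 1.07, 0.970, 0.456 and 2.67 in mature LERKO. Only library 4 of mature LERKO lay above the control range, and without it the estimate was -0.26.

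Cdkn1a, which encodes the cyclin-dependent kinase inhibitor p21, had estimates of the opposite sign to most of the other genes in immature mice, between the control stages and in the difference of the effects. It was at 4.82, 2.79, 2.86 and 12.1 CPM in mature controls and at 4.06, 2.57, 11.4 and 3.26 in mature LERKO. It was at 15.9, 6.97, 7.48 and 51.6 CPM in immature controls and at 13.4, 11.1, 5.19 and 5.48 in immature LERKO. Single mice in 3 of the groups held several times the level of the others, the highest being immature control library 4. The log2 difference between immature LERKO and control was -1.21 (SE 0.65, edgeR adjusted p = 1.00), and -0.20 without that library. Between mature and immature controls it was -1.85 (SE 0.67, edgeR adjusted p = 0.384), the only 1 of the 31 genes below an unadjusted p of 0.05 in that direction, where 2.29% of all genes were. Without immature control library 4 that estimate was -0.84. The difference of the LERKO effects, 1.12 (SE 0.94, edgeR adjusted p = 0.856), was 0.10 without it.

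The MCM complex, a ring of 6 proteins (Mcm2 to Mcm7) that unwinds DNA ahead of the fork, leaned furthest among the replication genes. The median log2 difference of its genes was -0.64 in mature and 0.88 in immature mice, and -1.57 for the difference of these effects. Summed over the 6 genes, the level was 36.0 ± 14.4 CPM in mature controls and 26.4 ± 1.82 in mature LERKO, and 27.0 ± 2.97 in immature controls and 42.2 ± 14.9 in immature LERKO (SD, n = 4 each). The SD in mature controls and in immature LERKO was several times that in the other groups.

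Mcm3 had the smallest p-values of the complex. It was at 6.70, 3.72, 4.29 and 4.8 CPM in mature controls and at 3.55, 4.09, 2.18 and 2.55 in mature LERKO. It was at 3.78, 3.62, 2.66 and 2.95 CPM in immature controls and at 6.39, 5.54, 3.35 and 8.86 in immature LERKO. In mature mice 1 LERKO library lay above the lowest control, and in immature mice 1 LERKO library lay within the control range. The log2 difference was -0.65 (SE 0.28, edgeR adjusted p = 0.645) in mature and 0.89 (SE 0.27, edgeR adjusted p = 1.00) in immature mice. The difference of these effects was -1.54 (SE 0.39, unadjusted p = 0.0011, edgeR adjusted p = 0.566).

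Mcm6 showed how a few mice carried the means. It was at 16.8, 4.74, 5.58 and 7.61 CPM in mature controls and at 5.53, 4.68, 4.87 and 5.92 in mature LERKO. It was at 6.38, 6.25, 6.13 and 3.46 CPM in immature controls and at 9.29, 9.28, 6.30 and 15.9 in immature LERKO. Mature control library 1 and immature LERKO library 4 stood far above the rest. All 4 immature LERKO libraries lay above all 4 mature LERKO libraries, with a log2 difference of -0.96 for mature against immature (SE 0.35, edgeR adjusted p = 0.955). Mcm4 was at 3.47, 2.84, 3.67 and 2.95 CPM in immature controls and at 7.22, 4.96, 2.68 and 8.33 in immature LERKO. In that group library 3 was below every control and the others were above, with a log2 difference of 0.84 (SE 0.28, edgeR adjusted p = 1.00), or 0.62 without library 4.

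Mcm2 and Mcm5 had the same pattern of means, at 2.38 ± 0.315 and 2.75 ± 1.01 CPM in immature controls against 4.83 ± 2.81 and 5.51 ± 2.37 in immature LERKO. Mcm7 did not share it. Its group means lay between 9.09 and 9.85 CPM, with log2 differences of 0.01 in mature (95% interval -0.31 to 0.32) and 0.01 in immature mice (-0.30 to 0.33). Mcm7 shares exon sequence with antisense neighbours and 2 microRNA genes on its own strand, so part of its count may belong to them.

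**Figure D2:**
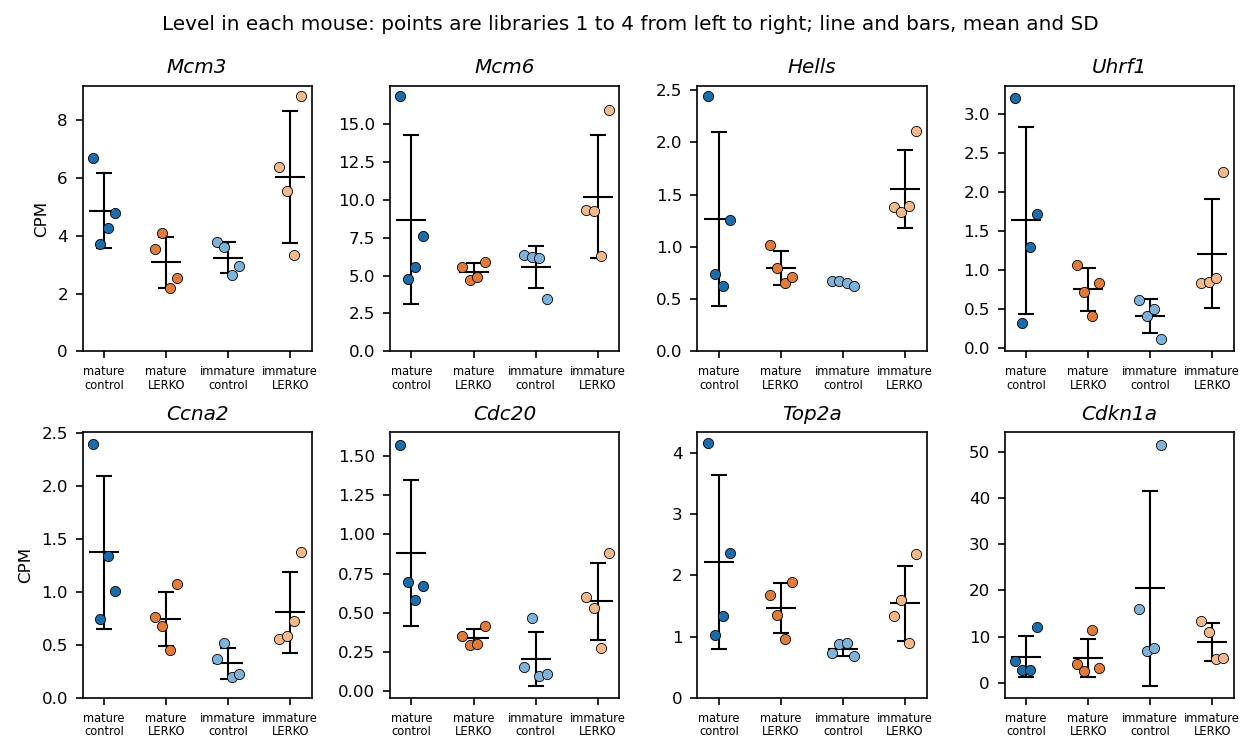
Level in CPM (y axis) of 8 cell cycle genes in each mouse of the 4 groups, with points for libraries 1 to 4 from left to right and bars for mean and SD (n = 4). For Hells all immature LERKO libraries, 1.33 to 2.11 CPM, lie above all immature controls, 0.624 to 0.674, while Mcm3 and Mcm6 overlap there.

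At the replication fork and in nucleotide supply, the chromatin factors Hells and Uhrf1 leaned further than the enzymes. Hells, a chromatin remodeller needed for DNA methylation, was at 0.674, 0.671, 0.653 and 0.624 CPM in immature controls and at 1.38, 1.33, 1.39 and 2.11 in immature LERKO. It was at 2.44, 0.744, 0.625 and 1.26 CPM in mature controls and at 1.02, 0.801, 0.659 and 0.711 in mature LERKO. The immature groups did not overlap, while the mature groups overlapped. Hells had 11 to 13 counts per library in immature controls and 25 to 43 in immature LERKO. At such counts the narrow range of the immature controls says little about the spread between mice. The log2 difference was 1.24 (SE 0.36, unadjusted p = 0.0035, edgeR adjusted p = 1.00) in immature mice, and 1.05 without immature LERKO library 4. In mature mice it was -0.65 (SE 0.35, edgeR adjusted p = 0.711), and the difference of the effects was -1.89 (SE 0.51, edgeR adjusted p = 0.566). Between the LERKO groups Hells did not overlap either, with mature below immature at -0.96 (SE 0.35, edgeR adjusted p = 0.955).

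Uhrf1, which brings the maintenance DNA methyltransferase to newly copied DNA, was at 0.622, 0.413, 0.502 and 0.113 CPM in immature controls and at 0.828, 0.853, 0.892 and 2.25 in immature LERKO. It was at 3.20, 0.325, 1.30 and 1.72 CPM in mature controls and at 1.07, 0.717, 0.406 and 0.829 in mature LERKO. The immature groups were separate, at 2 to 12 counts per library in controls and 16 to 46 in LERKO. Mature control libraries 1 and 2 lay at either end of the mature range. The difference of the effects was -2.63 (SE 0.81, edgeR adjusted p = 0.716).

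Pcna, the sliding clamp of the DNA polymerases, varied little. Its mean was 21.0 ± 0.878 CPM in mature controls, 19.6 ± 2.06 in mature LERKO, 17.8 ± 1.27 in immature controls and 21.1 ± 2.87 in immature LERKO (SD, n = 4 each). The mature controls, at 20.2 to 22.1 CPM, lay above all immature controls, at 16.2 to 19.0, a log2 difference of 0.24 (SE 0.10, edgeR adjusted p = 0.471). Tyms, which makes thymidylate, had a log2 difference of 0.03 in mature mice (SE 0.15, edgeR adjusted p = 0.980). Rrm1 and Rrm2, the subunits of ribonucleotide reductase, had group means of 8.18 to 10.7 and 5.47 to 8.10 CPM. Rrm1 reached an unadjusted p under 0.05 in immature LERKO (log2 0.39, edgeR adjusted p = 1.00, or 0.205 without library 4 of that group), and Rrm2 did so in no comparison.

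The mitotic cyclins and kinases were scarce. Summed over the 8 genes, they gave 6.06 ± 3.03 CPM in mature controls, 3.89 ± 0.634 in mature LERKO, 2.80 ± 0.991 in immature controls and 5.12 ± 1.48 in immature LERKO (SD, n = 4 each). Cdc20, the activator of the anaphase-promoting complex, was at 1.57, 0.697, 0.581 and 0.673 CPM in mature controls and at 0.355, 0.295, 0.304 and 0.415 in mature LERKO. It was at 0.156, 0.465, 0.10 and 0.113 CPM in immature controls and at 0.598, 0.533, 0.279 and 0.881 in immature LERKO. All mature controls lay above all mature LERKO and above all immature controls, while the immature groups overlapped through immature control library 2.

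Cdc20 gave the smallest p-value of the cell cycle genes for LERKO against control in mature mice, with a log2 difference of -1.35 (95% interval -2.30 to -0.39, SE 0.45, unadjusted p = 0.0087, edgeR adjusted p = 0.545). Without mature control library 1 it was -0.92. In immature mice the estimate was 1.44 (SE 0.51, edgeR adjusted p = 1.00), and the difference of the effects was -2.78 (SE 0.68, unadjusted p = 0.00084, edgeR adjusted p = 0.566). Per library, Cdc20 had 13 to 31 counts in mature controls and 6 to 7 in mature LERKO. It had 2 to 9 in immature controls and 5 to 18 in immature LERKO. Its passing of the filter on low counts thus rested on the mature controls and immature LERKO. Under the filter of CPM 1 in 4 libraries it was not kept, and Mcm3 had the smallest edgeR adjusted p in mature mice. Of 1868 exon bases of Cdc20, 53 overlap the antisense gene Elovl1.

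Ccna2 (chr3:36564865-36572150 in GRCm38, minus strand), the cyclin of S phase and of entry into mitosis, was at 2.39, 0.744, 1.34 and 1.01 CPM in mature controls and at 0.762, 0.675, 0.456 and 1.07 in mature LERKO. It was at 0.363, 0.516, 0.201 and 0.227 CPM in immature controls and at 0.552, 0.586, 0.725 and 1.37 in immature LERKO. The immature controls were the lowest group, below every library of the mature controls and of immature LERKO, and the mature groups overlapped. Per library, Ccna2 had 4 to 10 counts in immature controls, at or below the filter's minimum count of 10. It had 16 to 47 in mature controls, 9 to 18 in mature LERKO and 11 to 28 in immature LERKO. The log2 difference was -0.89 (SE 0.40, edgeR adjusted p = 0.676) in mature and 1.29 (SE 0.46, edgeR adjusted p = 1.00) in immature mice. The mature estimate was -0.49 without mature control library 1. The difference of the effects was -2.18 (SE 0.61, edgeR adjusted p = 0.609). Of 4083 exon bases of Ccna2, 510 overlap the antisense gene Exosc9, whose reads may be in its count.

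Cdk1 (chr10:69335146-69352938, minus strand), the kinase that drives mitosis, was at 0.965, 0.801, 0.558 and 0.652 CPM in mature LERKO and at 1.06, 1.65, 1.23 and 1.96 in immature LERKO, with no overlap. The log2 difference of mature against immature LERKO was -0.98 (SE 0.34, edgeR adjusted p = 0.955). In the controls it was at 1.83, 1.12, 0.804 and 0.757 CPM (mature) and at 0.933, 1.08, 0.452 and 0.567 (immature), and these overlapped. Ccnb2, a B-type cyclin, and Aurka, a kinase of the spindle poles, had group means of 0.440 to 0.892 and 0.565 to 0.712 CPM. Neither reached an unadjusted p of 0.05 in any comparison.

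The genes that the filter on low counts removed had few reads. Summed over the 4 libraries of a group, Ccnb1, the other B-type cyclin, had 24 counts in mature controls, 16 in mature LERKO, 8 in immature controls and 17 in immature LERKO. Plk1, a kinase of mitotic entry, had 42, 37, 18 and 24 counts in the same order. Aurkb, the kinase of the chromosomal passenger complex, had 32, 26, 11 and 32. Bub1, a kinase of the spindle checkpoint, had 20, 20, 4 and 11. In each of these 4 genes the immature controls held the fewest counts, and most single libraries had under 10. Fitted without the filter, mature against immature controls gave log2 differences of 2.02 for Bub1 (SE 0.81, edgeR adjusted p = 0.508), 1.34 for Ccnb1 (SE 0.62, edgeR adjusted p = 0.581), 1.02 for Plk1 (SE 0.47, edgeR adjusted p = 0.582) and 1.34 for Aurkb (SE 0.79, edgeR adjusted p = 0.710). The unadjusted p was 0.023 for Bub1, 0.044 for Ccnb1, 0.044 for Plk1 and 0.11 for Aurkb, where 6.56% of all genes in that fit were higher at an unadjusted p under 0.05.

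Genes of chromosomes, kinetochores and the spindle were all lower on average in immature than in mature controls. Summed over the 10 genes, the level was 16 ± 5.75 CPM in mature controls and 8.78 ± 2.51 in immature controls, and 12.5 ± 2.86 in mature LERKO and 13.3 ± 3.50 in immature LERKO (SD, n = 4 each). Top2a (chr11:98992943-99024189, minus strand), the topoisomerase that untangles chromosomes, was at 4.16, 1.02, 1.34 and 2.36 CPM in mature controls and at 0.726, 0.878, 0.904 and 0.681 in the immature controls. It was at 1.68, 1.35, 0.963 and 1.90 CPM in mature LERKO and at 1.33, 1.60, 0.892 and 2.35 in immature LERKO. The controls did not overlap between stages, and the LERKO groups did. The log2 difference of mature against immature controls was 1.46 (SE 0.41, edgeR adjusted p = 0.260), or 0.98 without mature control library 1.

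Mki67, which encodes the proliferation marker Ki-67, was at 7.16, 3.39, 3.04 and 2.65 CPM in mature controls and at 2.38, 2.43, 0.703 and 1.48 in the immature controls, again without overlap. The log2 difference was 1.21 (SE 0.44, edgeR adjusted p = 0.384), or 0.79 without mature control library 1. It was at 3.15, 3.12, 1.83 and 4.8 CPM in mature LERKO and at 2.35, 2.72, 2.06 and 5.73 in immature LERKO, which overlapped. Bub1b, the checkpoint protein BubR1, was at 0.697 to 1.32 CPM in mature controls and at 0.170 to 0.570 in the immature controls. Its difference between mature LERKO and control was -0.76 (SE 0.35, edgeR adjusted p = 0.683), with overlap.

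Birc5 (survivin) and Tpx2, a spindle assembly factor, had the same sign as Top2a in each of the 5 comparisons. Their differences of the effects were -1.18 (SE 0.48, edgeR adjusted p = 0.768) and -1.96 (SE 0.74, edgeR adjusted p = 0.768). Cenpa, the histone of centromeres, had group means of 2.96 to 3.51 CPM. Cenpe, a kinetochore motor, had an estimate of 0.25 (SE 0.53, edgeR adjusted p = 0.947) in mature LERKO, whose sign turned when mature LERKO library 1 was left out (-0.22). The spindle motors Kif11 and Kif20a reached an unadjusted p of 0.05 in no comparison, and Kif11 differed between the LERKO stages by 0.08 on the log2 scale. Of 4338 exon bases of Kif20a, 1271 overlap the antisense gene Cdc23, and for Ccne2 609 of 3495 overlap Ints8.

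**Figure D3:**
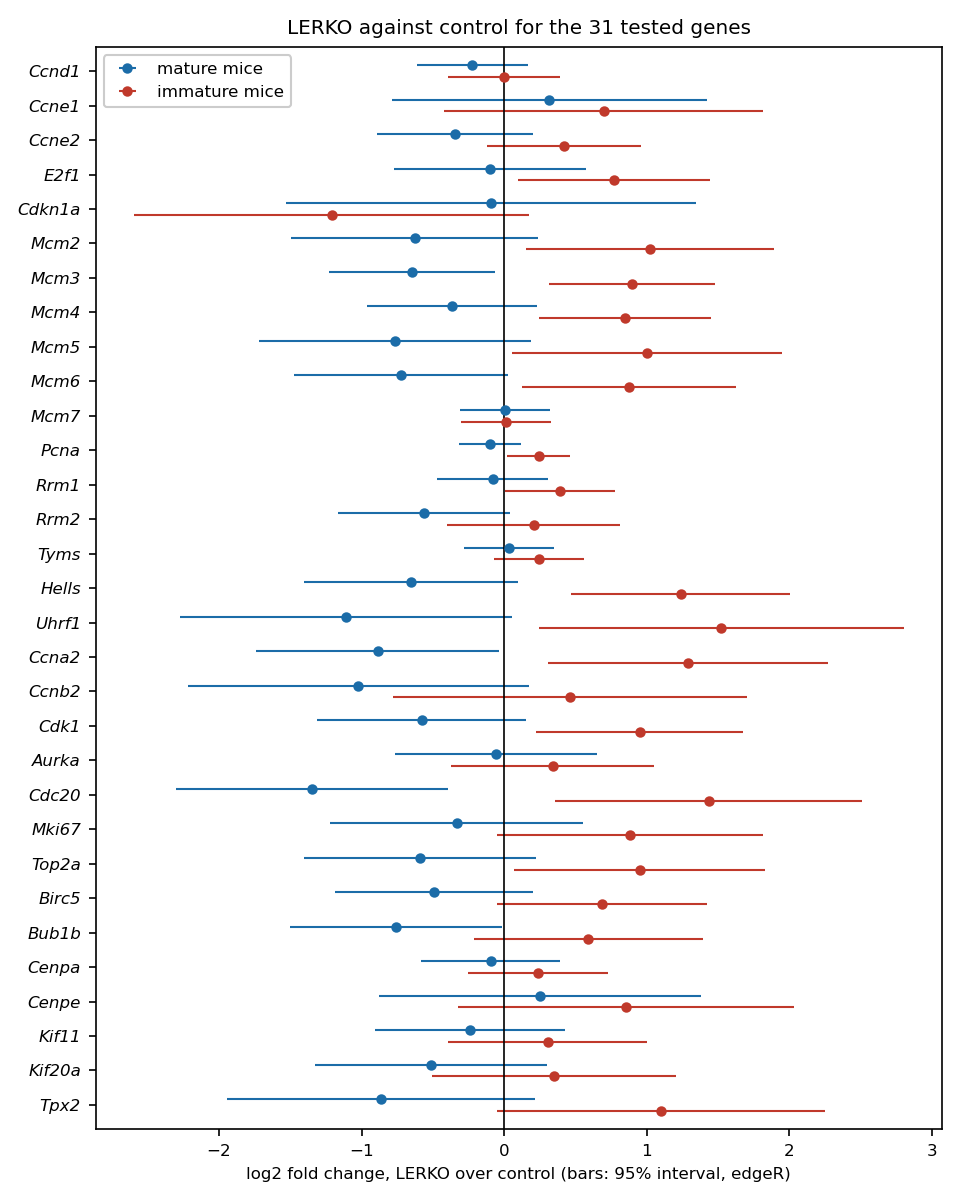
Log2 fold change of LERKO over control for the 31 tested genes (rows, by role), in mature and in immature mice, with 95% intervals from edgeR. Most mature estimates lie left of 0 and most immature ones right of it, while Mcm7 sits close to 0 in both and Cdkn1a alone lies far to the left in immature mice.

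Between mature and immature controls, 29 of the 31 tested genes were higher in the mature mice, with a median log2 difference of 0.58 against 0.02 over all genes. This comparison shares the mature controls with one genotype contrast and the immature controls with the other, so its values are not independent of theirs. At an unadjusted p under 0.05, 10 genes were higher, where 7.56% of all genes were, and 7 were higher without overlap (Ccna2, Cdc20, Top2a, Mki67, Bub1b, Pcna and Mcm4), where 6.11% were. The smallest p-values belonged to Ccna2, with a log2 difference of 2.04 (95% interval 1.09 to 2.98, SE 0.44, edgeR adjusted p = 0.235), and Cdc20, with 2.03 (1.00 to 3.06, SE 0.49, edgeR adjusted p = 0.235). The immature controls held 4 to 10 counts of Ccna2 and 2 to 9 of Cdc20 per library. DESeq2, run as an alternative, called both genes, Ccna2 with an adjusted p of 0.014 and Cdc20 with 0.048. It called 74 genes in this comparison where edgeR called 0.

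Between mature and immature LERKO, 29 of the 31 were lower in the mature mice, with a median of -0.24 against 0.00 over all genes. At an unadjusted p under 0.05, 8 genes were lower, where 1.84% of all genes were, and 5 of these were MCM genes. Hells, Mcm6 and Cdk1 were lower without overlap, beside 0.635% of all genes. Mcm3 had the smallest p-value, with a log2 difference of -0.96 (SE 0.27, edgeR adjusted p = 0.951). Ccnd1, at 0.07, and Kif11 were the genes with positive estimates.

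By role, the difference of the LERKO effects had a median of -0.38 for the genes of cycle entry, -1.57 for the MCM helicase, -0.62 for the fork and nucleotide supply, -1.53 for the 5 tested mitotic cyclins and kinases, and -1.18 for the 9 tested chromosome and spindle genes. In mature mice the role medians were -0.10, -0.64, -0.33, -0.89 and -0.49 in the same order, and in immature mice 0.42, 0.88, 0.32, 0.95 and 0.69. The role medians of DNA copying and of mitosis were thus all below 0 in mature mice and all above 0 in immature mice. Of the single genes in these roles, Mcm7, Tyms and Cenpe were above 0 in mature mice. Whether roles differ from each other was not tested.

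Individual mice carried much of this pattern. Mature control library 1 was the highest of its group for 30 of the 35 genes and the highest of all 16 libraries for 18. Immature LERKO library 4 was the highest of its group for 24 and of all libraries for 8. Without mature control library 1, the median of the tested genes in mature mice was -0.16, and 0 of them were lower at an unadjusted p under 0.05, where 2.07% of all genes were. Without mature control library 2 that number was 10, beside 3.23% of all genes. Without immature LERKO library 4, the median in immature mice was 0.50 and 4 genes were higher at that threshold, beside 0.912% of all genes. Without immature control library 4 that number was 6, beside 1.33%. For the control stages it was 5 in place of 10 without mature control library 1, beside 5.14% of all genes. For the LERKO stages it was 3 in place of 8 without immature LERKO library 4, beside 2.18% of all genes. The median of the difference of effects stayed between -1.26 and -0.79 when any library was left out.

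The same libraries differed in transcripts of another tissue. The summed level of the skeletal muscle markers, such as Acta1 and Atp2a1, was 786, 311, 0.715 and 55.3 CPM in the mature controls and 1.06, 0.586, 1.12 and 166 in immature LERKO. It was at most 2.18 CPM in every library of mature LERKO and of the immature controls, and no gene of the list was at 0 in all libraries. Mature control library 2, with the second highest muscle sum, was the lowest of its group for 14 of the 35 genes. The part of muscle transcripts in the result was not tested. Without mature control libraries 1 and 2 and immature LERKO library 4, a setting chosen after the data were seen, the median was -0.25 in mature mice with 20 of 31 genes lower. It was 0.50 in immature mice with 28 of 31 higher, and -0.60 for the difference of effects with 27 of 31 negative. No cell cycle gene passed there either, and 7 of the 31 were lower at an unadjusted p under 0.05 in that difference, where 0.949% of all genes were.

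Non-parenchymal cells, some of which divide more than hepatocytes, could also move these sums. Endothelial markers, such as Eng and Stab2, summed to 258 to 361 CPM in the mature controls, 120 to 288 in mature LERKO, 168 to 253 in the immature controls and 168 to 342 in immature LERKO. Stellate cell markers, such as Ecm1 and Dcn, summed to 472 to 618, 119 to 451, 303 to 394 and 275 to 566 CPM in the same order. Kupffer cell markers, such as Cd5l and Clec4f, summed to 312 to 429, 271 to 486, 167 to 333 and 222 to 298 CPM. All 10 endothelial and all 10 stellate markers had a lower fitted level in mature LERKO (medians -0.42 and -0.63) and a higher one in immature LERKO (0.30 and 0.25), the signs that most of the cell cycle genes had. For the difference of effects all 10 of each were negative, with medians of -0.71 and -0.76. Of the 10 Kupffer cell markers 9 were lower in mature LERKO (median -0.23) and 7 higher in immature LERKO (0.03). Between the control stages, all 10 endothelial, all 10 stellate and all 10 Kupffer cell markers were higher in mature mice. Their medians were 0.73, 0.56 and 0.64, beside 0.58 for the tested cell cycle genes. Of the 7 cholangiocyte markers 3 were higher there (median -0.01), and of the 6 tested erythroid markers all were (0.20). Immature LERKO library 4 had the highest endothelial and stellate sums of its group, and mature control library 1 the highest stellate sum of all. Mature LERKO library 4 had the lowest endothelial and stellate sums of all libraries, 120 and 119 CPM. The rest of its group had sums of 262 to 288 and 371 to 451 CPM. This library was the highest of its group for 16 of the 35 cell cycle genes. Its TMM factor, 0.852, was the lowest of all libraries, which raised its CPM. By library size alone its MCM sum, 22.5 CPM, was the lowest of its group. Its mitotic sum was then 3.99 CPM against 4.19 in library 1, while its chromosome and spindle sum, 14 CPM, was still the highest of its group. Cholangiocyte markers, such as Spp1, summed to 46.8 to 55.4 CPM in mature controls, 44.8 to 69.4 in mature LERKO, 50 to 53.5 in immature controls and 51.5 to 69.6 in immature LERKO. All 7 were higher in immature LERKO (median 0.38), 4 of 7 were lower in mature LERKO (-0.30), and 6 of 7 were negative in the difference of effects (-0.77). Lymphocyte markers, such as Ptprc and Cd79b, ranged from 8.49 to 19.3 CPM over all libraries. All 10 were lower in mature LERKO (median -0.23), 7 of 10 were higher in immature LERKO (0.04), and 9 of 10 were higher in mature than in immature controls (0.26). Erythroid markers, such as Hbb-bs and Hba-a1, ranged from 72.0 to 181 CPM. Of the 6 tested, 3 were lower in mature LERKO (median 0.05), all were higher in immature LERKO (0.38), and all were negative in the difference of effects (-0.29). No marker of these lists passed, and no gene of them was at 0 in all libraries. The part of these cells in the result was not tested.

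**Figure D4:**
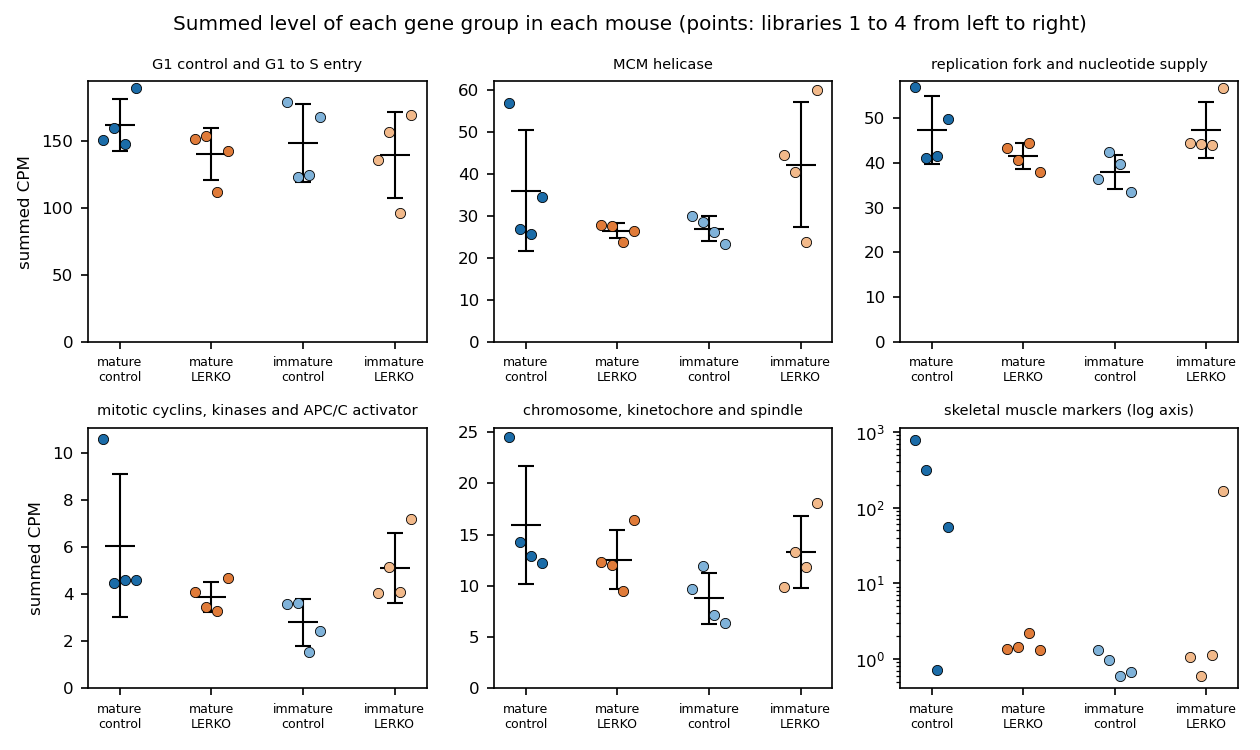
Summed CPM of each functional set of the 35 genes in each mouse (linear axes from 0) and of the skeletal muscle markers (log axis), with points for libraries 1 to 4 from left to right and bars for mean and SD (n = 4). Mature control library 1 and immature LERKO library 4 are the highest of their groups for the MCM helicase, the mitotic and the chromosome sets, and are also high in muscle markers.

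Further genes of the same pathways, from lists made beside the 35, passed the threshold in no comparison. Of 53 other replication genes 46 were tested, and their median was -0.17 in mature mice, 0.21 in immature mice and -0.36 for the difference of effects, negative in 43. Tk1, which phosphorylates thymidine, was among the most abundant. Chtf18, a subunit of a clamp loader, had the smallest p-value of this list. It was at 0.762, 0.279, 0.357 and 0.715 CPM in mature controls and at 0.203, 0.295, 0.101 and 0.178 in mature LERKO. It was at 0.311, 0.207, 0.151 and 0.284 CPM in immature controls and at 0.460, 0.693, 0.502 and 0.588 in immature LERKO. The immature groups did not overlap and the mature groups did, by a narrow margin. At these levels every library of mature LERKO and of the immature controls was below the filter's minimum count for Chtf18. Its passing of the filter thus rested on the mature controls and immature LERKO, as for Cdc20, and its low counts limit the precision of its estimates. The difference of the effects was -2.60 (SE 0.57, edgeR adjusted p = 0.566). For Chaf1a, which places histones on new DNA, it was -1.46 (SE 0.38, edgeR adjusted p = 0.566).

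Of 73 other mitosis genes 45 were tested, with medians of -0.21 in mature mice, 0.37 in immature mice and -0.55 for the difference of effects, negative in 42. H2afz and Wee1 were the most abundant. Foxm1, the transcription factor that activates many genes of mitosis, was at 1.32, 0.697, 0.625 and 1.01 CPM in mature controls and at 0.508, 0.633, 0.304 and 0.474 in mature LERKO. It was at 0.259, 0.103, 0.151 and 0.454 CPM in immature controls and at 0.460, 0.693, 0.781 and 0.881 in immature LERKO. As for Ccna2, the immature controls lay below every mature control and every immature LERKO library. At these levels every immature control was also below the filter's minimum count for Foxm1, which limits the precision of its estimates. The difference of the effects was -2.44 (SE 0.56, edgeR adjusted p = 0.566). For Prc1, which bundles microtubules at cell division, it was -2.73 (SE 0.76, edgeR adjusted p = 0.609).

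Lists of regulators were measured beside them, and no test compared the lists. Among 25 tested G1 kinases, pocket proteins and E2F genes the medians were 0.00 in mature mice, 0.06 in immature mice, where 18 of 25 were higher, and 0.00 for the difference of effects, negative in 13. Rbl2, a pocket protein, and Ccnd3, a D-type cyclin, were the most abundant. E2f2, an activating E2F, and Ccnd2, another D-type cyclin, had the smallest p-values, and the difference of the effects for E2f2 was -1.06 (edgeR adjusted p = 0.774). Among 24 tested CDK inhibitors and p53 targets the medians were -0.03, 0.02 and -0.03, negative in 13. Tob1 and Plk3 were the most abundant and Phlda3 had the smallest p-value in the difference of effects (-1.01, edgeR adjusted p = 0.768). Among 16 tested growth signals of hepatocytes the medians were -0.24 in mature mice, where 10 were lower, -0.04 in immature mice and -0.19 for the difference of effects, negative in 9. Egfr and Jun were the most abundant, and both varied several-fold between mice of a group. Tgfb1, a growth inhibitor of hepatocytes, was at 13.1, 11.4, 14.2 and 11.8 CPM in mature controls and at 9.54, 9.66, 8.06 and 7.58 in mature LERKO, without overlap. Its log2 difference there was -0.53 (SE 0.17, edgeR adjusted p = 0.486), and the difference of the effects was -0.90 (SE 0.24, edgeR adjusted p = 0.579).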

How the data were processed

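Liver RNA of 16 mice, 4 per group by the labels, was sequenced as stranded, paired-end mRNA libraries, per the labels' protocols. The submitters' processing notes name STAR, limma, R 4.05 and the build mm10. No source used here gives their roles, the counter, its annotation or its strand setting. Raw counts per gene make up the deposited table. In 5 columns the deposited values are best called estimated counts, because 10 values of 2 genes are not whole, and these were rounded.

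Genes were kept by filterByExpr (minimum count 10, minimum total 15), which left 13379. Counts were tested with edgeR 4.0.16 (TMM factors, quasi-likelihood test, R 4.3.3) in 1 model of the 4 groups, with Benjamini-Hochberg adjustment over all tested genes and a threshold of 0.05. The common biological coefficient of variation was 21.2%. CPM are counts brought to equal library totals with TMM factors, and SE is of the log2 fold change. P-values test differences between groups against the spread between mice. Scripts were tested on simulated data.

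The genes and lists were chosen with earlier results of these data known. Named in full were, per comparison, the 3 tested genes of each sign with the smallest p-values, and from each further pathway list the 2 most abundant and the 2 with the smallest p-values in the difference of effects. A result of this rule is not reported here. Bub1b, E2f1, Uhrf1, Mki67, Pcna, Birc5 and Tpx2 were given more room after their values were seen. Alternatives were RLE factors, library size alone, DESeq2 1.42.0, limma-voom (limma 3.58.1), a filter of CPM 1 in 4 libraries, no filter, the compared groups alone, an adjusted p of 0.1 and each library left out. Gene positions and exon overlaps are from GENCODE on GRCm38, and promoters from RefSeq.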

Additional observations from a re-analysis of the deposited data

Results flagged for a closer look

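In groups of 4, a library was singled out when its gap to the nearest other library, divided by the range of the group, exceeded Dixon's critical value. Of 124 combinations of tested gene and group 9 met this, and of 20 combinations of summed set and group 3 did. Chance flags about 1 in 20 among independent, normally distributed values, which CPM of genes from shared libraries need not be. Mature control library 1 was high for Cdc20 (1.57 CPM, next 0.697), Mki67 (7.16, next 3.39), the summed mitotic cyclins and kinases (10.6, next 4.60) and the summed chromosome, kinetochore and spindle genes (24.5, next 14.3). Immature LERKO library 4 was high for Hells (2.11 CPM, next 1.39), Uhrf1 (2.25, next 0.892) and the summed fork and nucleotide genes (56.8, next 44.4). These libraries are also among the 3 with the most muscle transcripts. Mature control library 3 was low for Mcm7 (6.48 CPM, next 9.71) and immature control library 4 for Mcm6 (3.46, next 6.13). Mature LERKO library 3 was high for Cdkn1a (11.4 CPM, next 4.06). Immature control library 1 was high for Ccnd1 (157 CPM, next 114) and library 2 for Cdc20 (0.465, next 0.156).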

How the results depend on the processing

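No cell cycle gene passed under any edgeR or limma-voom setting or with any library left out. With DESeq2 2 passed between the control stages (Ccna2, Cdc20), and 0 in the other comparisons. DESeq2 called more genes, 27 for LERKO against control in mature mice, 13 in immature mice, 74 between control stages, 6 between LERKO stages and 22 in the difference of effects. With only the compared groups fitted, 6 genes passed between control stages. With each library left out in turn, genes past the threshold ranged from 1 to 2 in mature mice, 0 to 1 between control stages and 0 to 1 between LERKO stages. The median log2 difference of the tested cell cycle genes then ranged from -0.56 to -0.16 in mature mice and from -1.26 to -0.79 in the difference of effects, which was -0.60 without the 3 libraries richest in muscle transcripts. Estimates near 0 changed sign. With library size alone, Tyms in mature mice was -0.0261 and Ccnd1 in immature mice 0.0604, or 0.0125 with the CPM filter. With each library left out, mature LERKO against control ranged from -0.035 to 0.121 for Tyms, -0.215 to 0.517 for Cenpe and -0.258 to 0.604 for Ccne1. Ccnd1 ranged from -0.139 to 0.149 in immature mice and from -0.0777 to 0.211 between LERKO stages, Kif11 from -0.0957 to 0.269 between LERKO stages, and Mcm7 from -0.158 to 0.0288 between control stages. The cause was not tested. The CPM filter kept 24 of the 35 genes. No paired analysis was possible because the labels give no replicate numbers shared between groups. Counts under about 20 per library limit the precision for the scarcest genes of mitosis and for Chtf18, and for Hells and Uhrf1 in several libraries.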
